A study of Mus musculus with 16 samples.

Results

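The Il10 and Il24 cytokine cluster is a gene neighbourhood of mouse chromosome 1 that holds 4 members of the interleukin-10 family, Il24, Il20, Il19 and Il10. Its acetylated and open chromatin was read from every H3K27ac or DNase island that touches 132760001 to 132940000 (180 kb, build mm9), a span defined by position. The lists of all 16 libraries placed 173 of their 469755 islands there, 55 of 229664 H3K27ac islands and 118 of 240091 DNase islands. A RefSeq gene table of another build gives the order Fcmr, Il24, Il20, Il19, the long noncoding RNA gene Gm41952, Il10 and Mapkapk2 along the chromosome. Since that table is not of build mm9, the islands are given by position and none is assigned to a single gene.

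Interleukin-10 restrains inflammation: it acts through a receptor of Il10ra and Il10rb and the factor STAT3, and it is made by Th2 cells and by many other activated T cells. Interleukins 19, 20 and 24 form the interleukin-20 subfamily, which acts mainly on epithelial cells through receptors that contain Il20ra, Il20rb or Il22ra1. Il24 was described in mouse T cells as a gene switched on by interleukin-4 during Th2 culture, and GATA3, the factor that defines Th2 cells, is known to remodel chromatin at Il10. Bcl11b is a zinc finger factor of the T lineage that the series' title joins to GATA3. H3K27ac marks active promoters and enhancers, and DNase cuts open chromatin such as sites bound by transcription factors.

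Late KO cells were Bcl11b fl/fl-CreERT2 CD4 T cells on a C57BL/6 background that were grown under Th2 conditions for 4 days, rested in IL-2 for 1 day and returned to Th2 conditions for another 4 days, when 4-OHT, which switches on the Cre, was added. Late WT cells had the same schedule without 4-OHT. Early KO cells received 4-OHT during a single Th2 culture of 4 days, and early WT cells had the same culture without it. All groups carried the floxed alleles and the Cre, so loss of Bcl11b and exposure to 4-OHT cannot be told apart. The starting cells are labelled naive although the sorting gate is given as CD44high, which usually marks activated cells. Each assay had 2 libraries per group. The labels do not say that these came from separate cultures or mice, so p-values measure only the spread between these samples, and that spread may be technical. In bulk samples fewer cells with an active site and less signal per cell cannot be told apart. Cell type markers and the deleted part of Bcl11b were not analysed here.

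The H3K27ac lists were alike in size, whereas the DNase lists were not. Across the 8 libraries H3K27ac islands numbered 26548 to 32112 per list and spanned 100.9 to 111.7 Mb. DNase lists covered 25.9 and 26.2 Mb in late KO, 44.7 and 52.4 in late WT, 31.3 and 49.3 in early KO, and 46.3 and 66.8 in early WT cells. The lists hold no read counts, so the depth behind an island is unknown, and a stretch without an island is only a stretch that a list does not hold.

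The cluster was among the most densely acetylated and most open parts of the genome in every library. H3K27ac islands covered 88.0 and 88.4 kb of the 180 kb in late KO, 89.4 and 93.8 in late WT, 83.6 and 80.4 in early KO, and 81.2 and 75.8 in early WT libraries. Set against all tiles of the same width that hold an island in any list of the assay, the locus ranked between 48 and 98 of 7474, where the median tile had 7.4 to 8.6 kb. DNase islands covered 18.8 and 24.8 kb in late KO, 39.6 and 40.4 in late WT, 20.8 and 32.8 in early KO, and 31.4 and 43.0 in early WT libraries. By DNase the locus ranked between 15 and 65 of 7888 tiles, where the median tile had 2.0 to 5.8 kb. This density was not particular to the cluster. The next 180 kb above it held more H3K27ac in every library, 92.2 to 115.6 kb, and 17.6 to 47.4 kb of DNase islands. The 180 kb below it held 6.8 to 12.8 kb of H3K27ac and 2.8 to 11.6 kb of DNase islands.

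**Figure D1:**
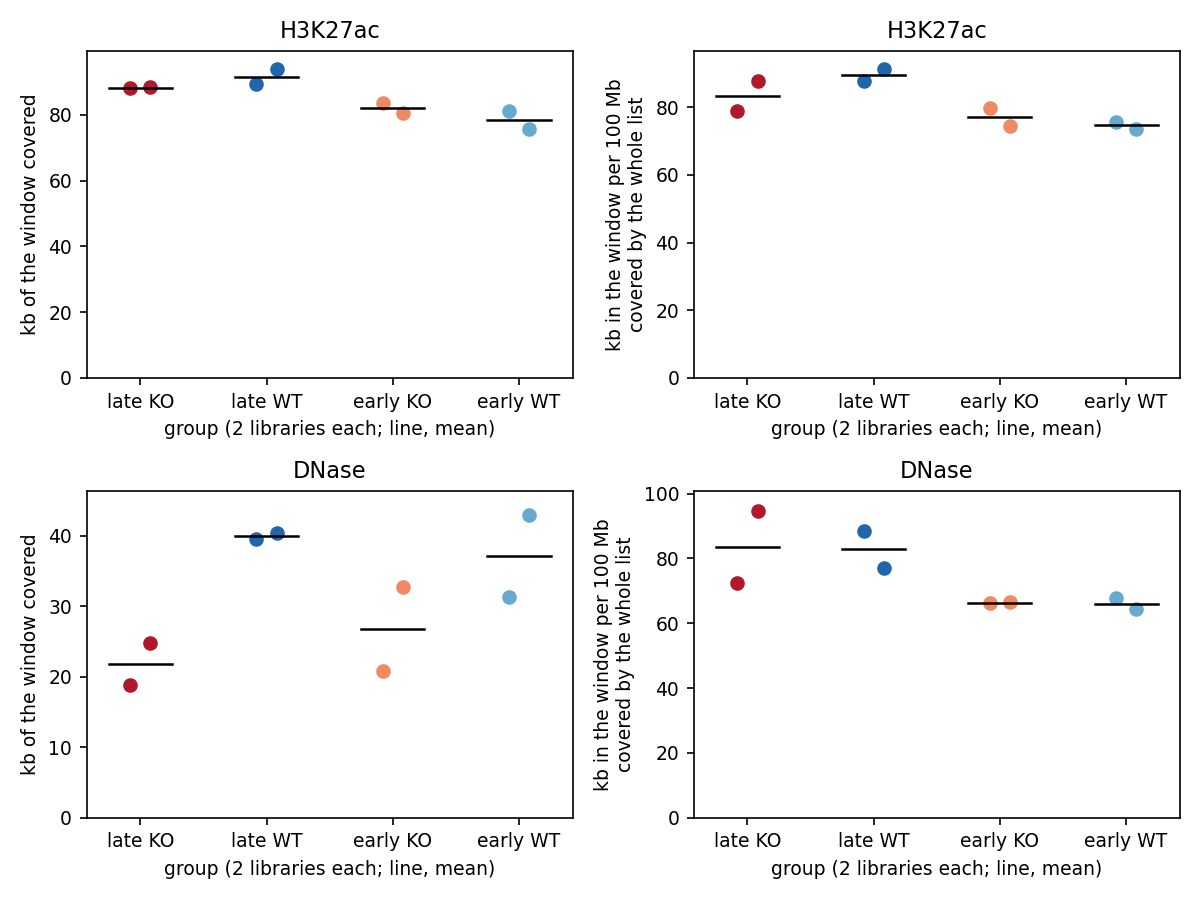
Length of the 180-kb window covered by islands in each library (left, kb) and the same length per 100 Mb covered by the whole list (right, kb), for H3K27ac (top) and DNase (bottom), with a point per library and a line at the group mean, from late KO to early WT. H3K27ac coverage lay between 75.8 and 93.8 kb in all 8 libraries, and DNase coverage between 18.8 and 43.0 kb.

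The islands fell into a low-coordinate part and a high-coordinate part with a bare stretch between them. From 132805601 to 132875400, 69.8 kb, no island of either assay was listed in any of the 16 libraries. Overlapping or touching H3K27ac islands of the 8 libraries merged into 6 regions, and DNase islands into 14. Below the bare stretch lay 3 H3K27ac regions. The lowest, 132759801 to 132763600, begins just outside the window and held 1.2 and 1.0 kb in late KO, 0.0 and 1.4 in late WT, 2.0 and 2.8 in early KO, and 3.6 and 2.2 in early WT libraries. Both early groups were above every late library there, and the late groups overlapped.

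The region from 132770801 to 132786400 hardly varied in length. It held 14.6 and 14.8 kb in late KO, 14.6 and 14.6 in late WT, 15.2 and 14.8 in early KO, and 15.6 and 14.6 in early WT libraries. Its neighbour from 132787001 to 132805600, varied more, with 15.6 and 16 kb in late KO, 15.4 and 18.6 in late WT, 14.2 and 11.0 in early KO, and 14.6 and 11.2 in early WT libraries. Every late library was above every early library in this neighbour, while KO and WT overlapped at both stages.

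Above the bare stretch lay the largest domain of the cluster, from 132879601 to 132931200, 51.6 kb in all. Its islands covered 49.0 and 48.0 kb in late KO, 48.4 and 51.0 in late WT, 48.2 and 48.2 in early KO, and 44.6 and 46.0 in early WT libraries. Both early WT libraries were below the other 6, which overlapped. The region that follows, 132931401 to 132962000, runs out of the window at its upper end and held 29.6 and 27 kb in late KO, 29.8 and 22.4 in late WT, 22.2 and 20.6 in early KO, and 19.2 and 19.8 in early WT libraries. The early KO libraries were above the early WT libraries there and, with 22.4 kb in late WT replicate 2 the nearest, below all late ones.

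**Figure D2:**
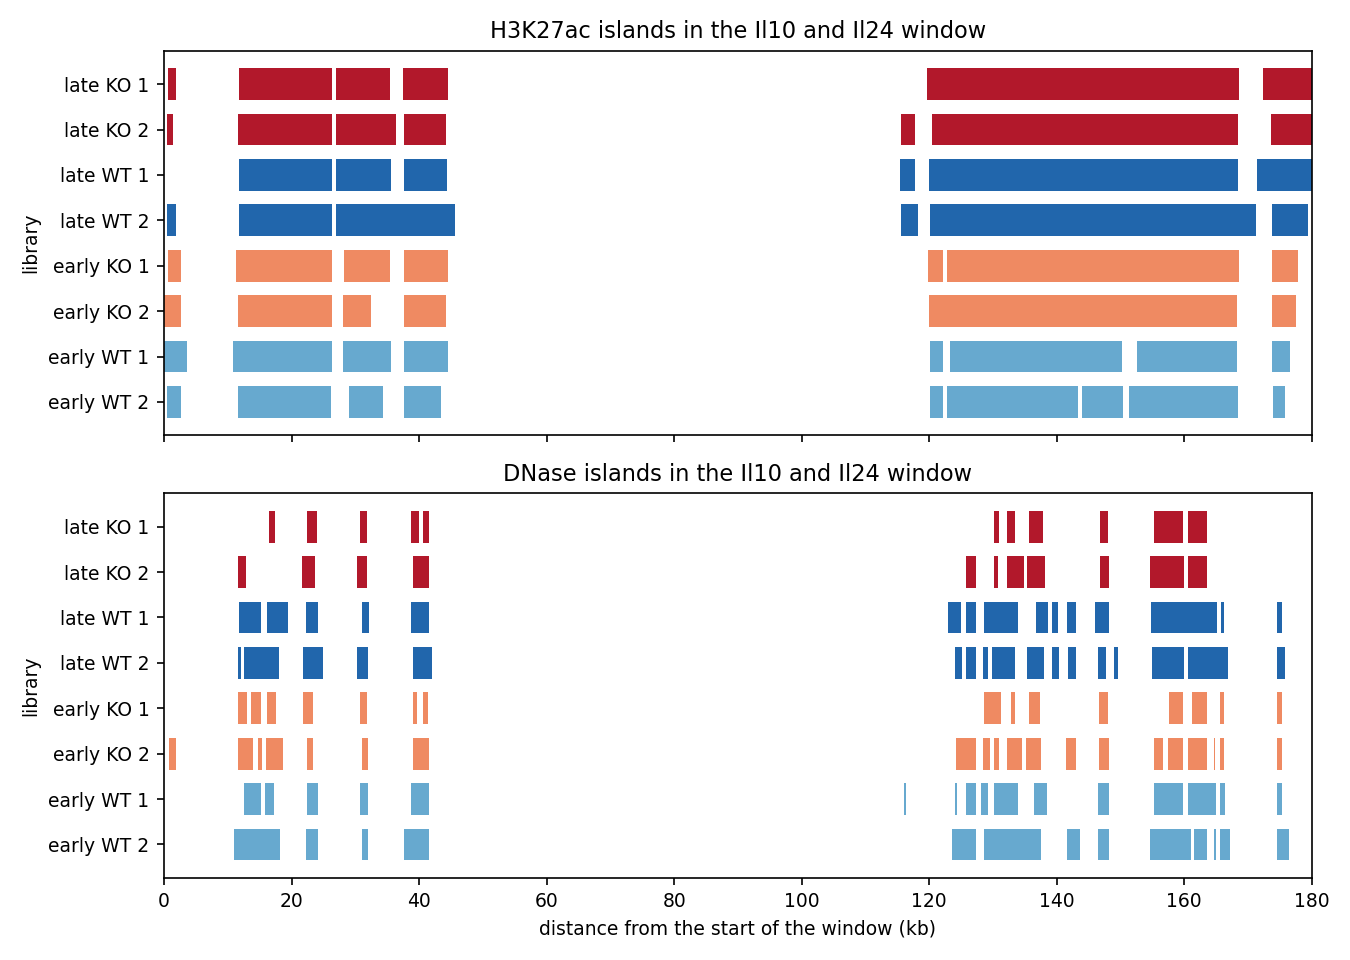
Islands of each library drawn to scale along the window, H3K27ac and DNase, with libraries from late KO at the top to early WT at the bottom; the axis is the distance from the window's start in kb. The bare stretch of 69.8 kb separates the 2 parts, and the large upper H3K27ac domain is broken in early KO replicate 1 and in both early WT libraries.

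The large domain was a single island in every late list, whereas early WT lists split it. Its longest island measured 49.0 and 48.0 kb in late KO, 48.4 and 51.0 in late WT, 45.8 and 48.2 in early KO, and 27 and 20.6 in early WT libraries. Early KO replicate 1 had 1 break of 600 bp at 132882201 to 132882800, and early KO replicate 2 had none. Both early WT lists had that break too, at 132882201 to 132883200 (1000 bp) in replicate 1 and at 132882201 to 132882800 in replicate 2. They also broke at a second place, 132910201 to 132912600 (2400 bp) in replicate 1 and 132910401 to 132911400 (1000 bp) in replicate 2. Early WT replicate 2 alone had a break of 600 bp from 132903401. SICER, the island caller, joins enriched 200-bp windows over gaps of up to 400 bp, so any break it leaves must exceed that limit. Breaks of 600 bp are the smallest it can leave.

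Within its own list, the caller's score of the domain's longest island ranked 17 and 14 in late KO, 15 and 16 in late WT, and 54 and 51 in early KO lists. In early WT replicate 1 the pieces from 132883201 and 132912601 ranked 413 and 371, and in replicate 2 those from 132882801, 132904001 and 132911401 ranked 879, 5951 and 378. A piece of 2.0 kb at the lower end, from 132880201, ranked 18841 and 20461 in these lists. The score is the authors' value and sums over an island, so splitting lowers it, and ranks in different lists show no change. The region from 132770801 to 132786400, which was not split, ranked 346 and 353 in late KO, 199 and 181 in late WT, 653 and 572 in early KO, and 1002 and 1266 in early WT lists. At these 2 sites the late lists gave ranks nearer the top than the early lists, and early KO lists nearer than early WT lists. Neither order held throughout the region from 132787001 to 132805600. Its upper island ranked 2215 and 2475 in late KO, 1479 and 1412 in early KO, and 1836 and 2096 in early WT lists. Its lower island ranked 11022 and 11830 in early KO against 8068 and 10251 in early WT lists.

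**Figure D3:**
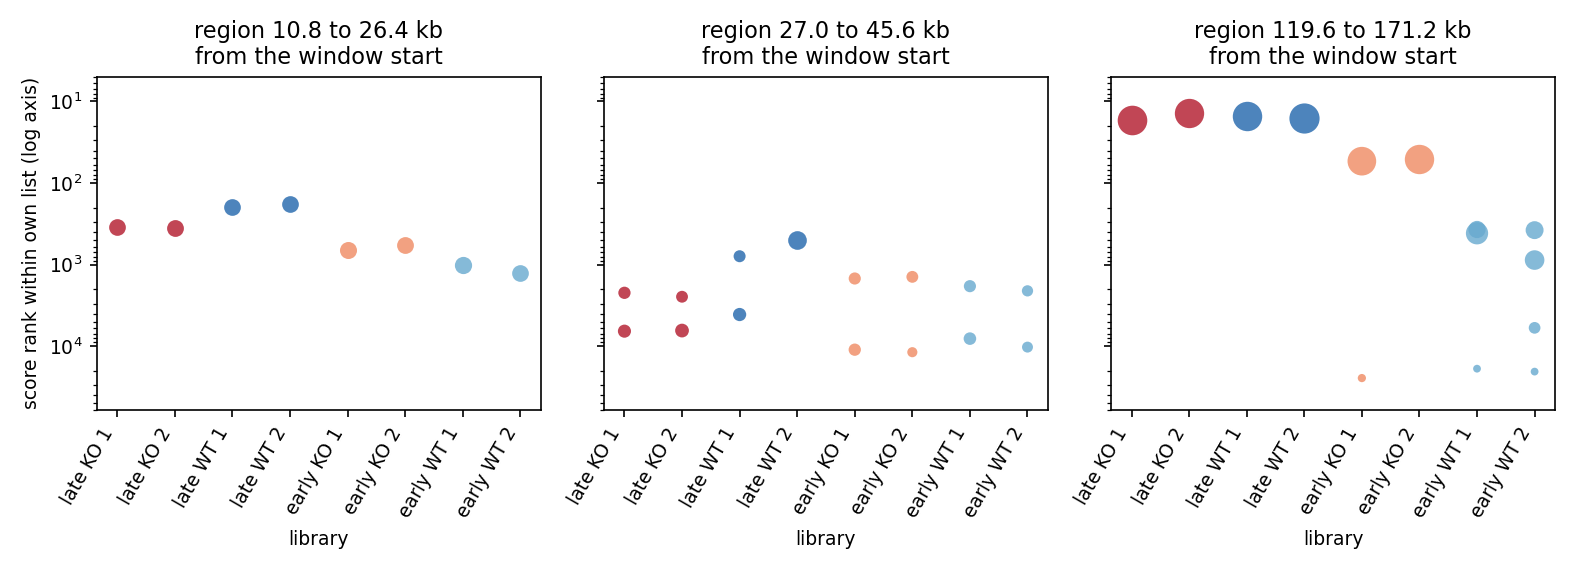
Rank of H3K27ac islands by the caller's score within each library's own list (log axis, rank 1 is the highest score; dot area grows with island length) in 3 regions titled by their distance from the window's start, by library from late KO to early WT. The large upper domain ranked 14 to 17 in late lists, 51 and 54 in early KO lists, and no better than 371 in early WT lists.

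The first comparison asked whether the length covered by H3K27ac islands in the cluster differed between KO and WT cells. No part of the cluster passed the test at either stage. The window was cut into 18 bins of 10 kb, 12 of which held H3K27ac islands in at least 2 libraries, and the kb covered were fitted with limma on the log2(kb + 0.5) scale over all 39126 such bins of the genome, libraries centred on a common median. In late KO against late WT cells 0 of 12 bins were called at an adjusted p under 0.05, where 6.75% of all bins were, and 0 had an unadjusted p under 0.05. The median log2 change of the 12 bins was -0.05, against -0.04 over all bins. Coverage of a bin cannot exceed 10 kb, so a full bin could not show a gain. The bin from 132890001 to 132900000 was full in all 8 libraries. Those from 132900001 and 132910001 were full in every late and every early KO library. Coverage also does not measure signal within an island. In early KO against early WT cells 0 of 12 bins were called, where 14.6% of all bins were, and 1 had an unadjusted p under 0.05. The median log2 change was 0.03, against -0.03 over all bins.

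That 1 bin runs from 132930001 to 132940000, at the upper end of the window. It held 7.6 and 6.4 kb in late KO, 8.6 and 6.8 in late WT, 4.0 and 3.8 in early KO, and 2.8 and 1.8 in early WT libraries. Early KO and early WT did not overlap, with a log2 change of 0.63 (SE 0.19, limma adjusted p = 0.0866). The KO effect was 0.80 lower on the log2 scale at the late than at the early stage, a difference that did not pass the test (interaction log2 -0.8, limma adjusted p = 0.168). Over the cluster, 0 of 12 bins were called for the interaction and 1 had an unadjusted p under 0.05, where 10.1% of all bins were called.

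Taken as 1 unit, the window was not called between genotypes at either stage. Its H3K27ac coverage changed by a log2 of -0.11 in late KO against late WT cells (SE 0.07, limma adjusted p = 0.392), where 9.9% of all 180-kb tiles were called. In early KO against early WT cells the log2 change was -0.05 (SE 0.07, limma adjusted p = 0.669), where 27.2% of tiles were called. Centring removed a log2 of 0.11 from that early contrast, and without it the value was 0.06. Coverage was 88.2 ± 0.28 kb in late KO against 91.6 ± 3.11 in late WT, and 82.0 ± 2.26 kb in early KO against 78.5 ± 3.82 in early WT (SD, n = 2 each), so the uncentred differences had opposite signs at the 2 stages. A mean over both stages therefore cancels them and says nothing of either stage. Over both stages KO libraries averaged 85.1 ± 3.81 kb and WT libraries 85.05 ± 8.08 kb (SD, n = 4 each), a difference of 0.05 kb (exact permutation, two-sided, p = 1.0; 4 libraries against 4 allow none below 0.0286). Within a stage, 2 libraries against 2 cannot pass an exact test.

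No H3K27ac region was held by 1 genotype alone, a count near the genome-wide shares. Of 6 merged H3K27ac regions found in late and 5 found in early libraries, 0 were held by both KO and neither WT library of a stage, where over the genome 5.55% of late and 10.4% of early regions were. Likewise 0 were held by both WT and neither KO library, where 3.98% of late and 4.2% of early regions were. Of the 200-bp windows that were covered in either of 2 libraries, late KO and late WT shared 92.2% on average inside the cluster, against 92.6% between late KO replicates and 88.5% between late WT replicates. Early KO and early WT shared 89.8%, against 92.9% between early KO replicates and 88.7% between early WT replicates. Sharing of H3K27ac coverage between genotypes thus lay within the range of the replicates in the cluster. Over the whole genome it was 71.0% for late KO with late WT, against 78.0% and 76.5% between their replicates, and 62.5% for early KO with early WT, against 76.1% and 70.3%.

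The second comparison set late against early cells of a genotype, and H3K27ac coverage of the cluster was higher in late WT than in early WT cells, by a change larger than in 69.4% of all 180-kb tiles, a call that several alternatives lost. These contrasts use the same early WT and late WT libraries as the KO contrasts. Of 12 bins, 2 rose and 0 fell in late WT against early WT cells, where 9.54% of all bins rose and 6.77% fell. An unadjusted p under 0.05 was found in 6 of the 12. Among these the bin from 132760001 was lower in late WT (log2 -1.73, limma unadjusted p = 0.0342) and the others were higher. The share of all bins at that unadjusted threshold was not counted. The median log2 change of the 12 bins was 0.24, against 0.04 over all bins. The bin from 132930001 to 132940000, whose values stand above, rose by a log2 of 1.61 (SE 0.19, limma adjusted p = 0.00214), and its late libraries all lay above its early libraries. This call held when any single library was left out, with adjusted p between 0.00422 and 0.0201, but not when the lists were limited to the upper 50% of islands by score, where the log2 change was 1.93 (adjusted p = 0.440).

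The other bin that rose, 132870001 to 132880000, borders the bare stretch and holds the whole of a small H3K27ac region from 132875401 to 132878200. This bin had 0.4 and 2.2 kb in late KO, 2.4 and 2.6 in late WT, 0.2 and 0.0 in early KO, and was listed at 0 in both early WT libraries (limma adjusted p = 0.0264 for late WT against early WT). The small region itself held 2.2 kb in late KO replicate 2, 2.4 and 2.6 kb in late WT, and was listed at 0 in late KO replicate 1 and in all early libraries. By score its islands were near the bottom of their own lists, at percentiles 0.1 and 3.4 in late WT and 7.4 in late KO replicate 2. Both early WT lists were at 0, so that group showed no spread of its own in this bin. The call was lost without late WT replicate 1 (adjusted p = 0.105) or 2 (0.113), without early WT replicate 1 (0.101) or 2 (0.0899), and with lists of equal length (0.893). The fitted log2 change, which depends on the pseudocount since early WT was listed at 0, was 2.63 with all libraries, between 2.54 and 2.72 with any 1 left out, and 0.083 with lists of equal length. Lists of equal length were cut by score to the same number of islands, not to the same covered length.

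In late KO against early KO cells 0 of 12 bins were called by limma, where 9.6% of all bins were, and 2 had an unadjusted p under 0.05. The median log2 change was 0.05, against 0.04 over all bins. At 132930001 to 132940000 late KO exceeded early KO by a log2 of 0.81 (limma adjusted p = 0.0546), and the libraries did not overlap. Over the whole window the log2 change was 0.25 in late WT against early WT cells (SE 0.07, limma adjusted p = 0.0373), where 16.5% of tiles rose and 13.9% fell. In late KO against early KO cells it was 0.18 (SE 0.07, limma adjusted p = 0.135), where 17.5% of tiles were called. The 2 time changes were not shown to differ (interaction log2 -0.07, SE 0.1, limma adjusted p = 0.74, where 9.36% of tiles were called). The whole-window call in WT was lost without late WT replicate 1 (adjusted p = 0.0851) or 2 (0.162), early KO replicate 1 (0.0545), or early WT replicate 1 (0.0643) or 2 (0.101).

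**Figure D4:**
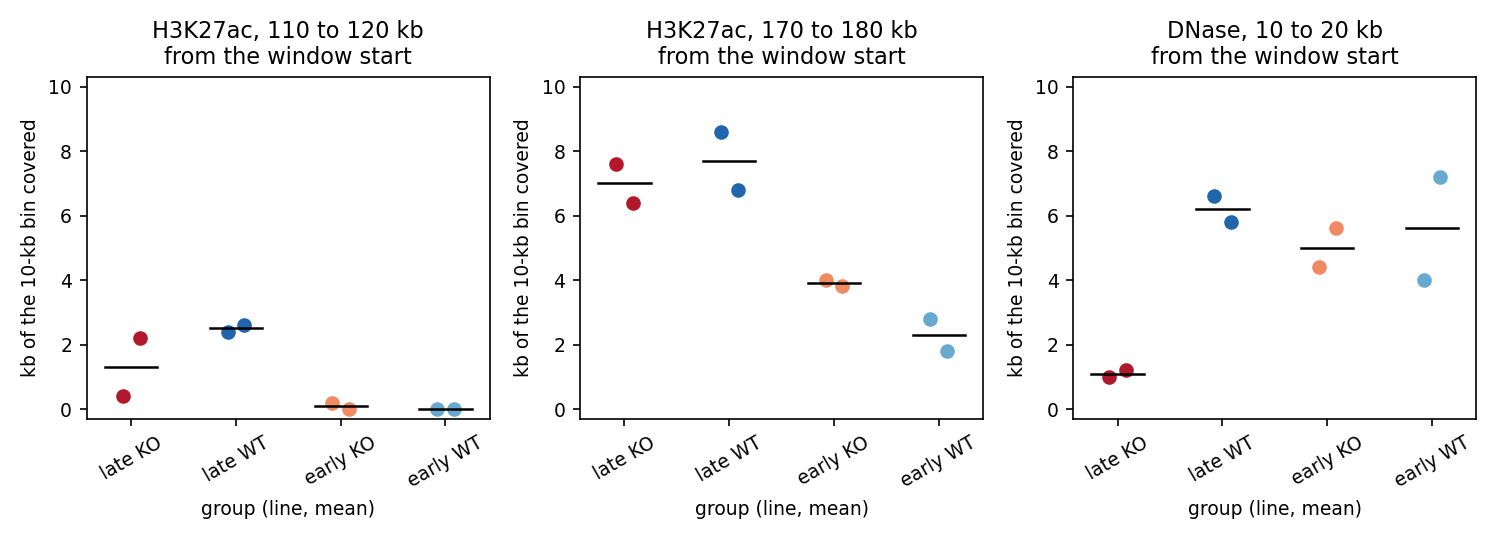
Length covered by islands in each library (kb, points; short lines give the group mean) in the bins called in any contrast, H3K27ac at 132870001 and 132930001 and DNase at 132770001, titled by their distance from the window's start, from late KO to early WT. The DNase bin held 1.0 and 1.2 kb in late KO libraries and 4.0 to 7.2 kb in the other 6.

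The third comparison asked whether open chromatin of the cluster differed between KO and WT cells. Late KO lists showed less of it, and 1 bin at the lower end of the window passed the test, but late KO lists were also the shortest genome-wide. Of 10 bins tested, 1 fell and 0 rose in late KO against late WT cells, where 1.81% of 37586 bins fell and 0.343% rose. An unadjusted p under 0.05 was found in 5 of the 10, all lower in late KO. The share of all bins at that unadjusted threshold was not counted, so these 5 cannot be set against the genome. The median log2 change of the 10 bins was -0.28, against -0.17 over all bins. Centring had removed a log2 of -0.36 from this contrast in the bin fit, so a genome-wide shift below WT remained. In early KO against early WT cells 0 of 10 bins were called by limma and 0 had an unadjusted p under 0.05, where 1.23% of all bins were called, with a median log2 change of -0.22 against -0.09 over all bins.

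The bin that fell runs from 132770001 to 132780000. DNase islands covered 1.0 and 1.2 kb of it in late KO, 6.6 and 5.8 in late WT, 4.4 and 5.6 in early KO, and 4.0 and 7.2 in early WT libraries. The late KO libraries were far below the other 6, which overlapped. Late KO fell by 1.71 on the log2 scale against late WT (SE 0.22, limma adjusted p = 0.0204), while early KO and early WT differed by a log2 of 0.15 (limma adjusted p = 0.863). The difference between these KO effects had a log2 of -1.86 (SE 0.31, limma adjusted p = 0.109) and did not pass the test. By limma 0 of 10 bins were called for this difference, where 0.0% of all bins were, and 2 had an unadjusted p under 0.05.

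The 2 late KO lists did not hold the same piece of this bin. Late KO replicate 1 held 132776401 to 132777400 and replicate 2 held 132771601 to 132772800, at percentiles 32.7 and 7.8 of their own lists by score. In late WT, replicate 1 held 132771801 to 132775200 and 132776201 to 132779400, at percentiles 70.7 and 78.9, and replicate 2 held 132772601 to 132778000 at percentile 95.5 beside a piece of 0.4 kb. H3K27ac islands covered 8.2 and 8.4 kb of the same bin in late KO, 8.2 and 8.2 in late WT, 8.8 and 8.4 in early KO, and 9.2 and 8.4 in early WT libraries. H3K27ac coverage of the bin thus overlapped between late KO and late WT (log2 change -0.02, limma adjusted p = 0.988).

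The DNase call at this bin was lost with some libraries left out and with another start of the bins. The log2 change stayed between -1.80 and -1.62 with any 1 library left out, but the adjusted p missed the threshold without late WT replicate 1 (adjusted p = 0.127) or 2 (0.133), or without early WT replicate 1 (0.0674) or 2 (0.0677). With bins begun 5 kb further on, a setting added after the data were seen, the bins from 132765001 and 132775001 had log2 changes of -1.51 (adjusted p = 0.165) and -0.76 (0.158).

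Across the window, DNase coverage averaged 24.3 ± 6.19 kb in KO and 38.6 ± 5.02 kb in WT libraries over both stages (SD, n = 4 each), a difference of -14.3 kb (exact two-sided permutation p = 0.0571). Early KO replicate 2, at 32.8 kb, lay above early WT replicate 1, at 31.4 kb, and the other KO libraries lay below all WT libraries. Lists cut by score to the island number of the shortest list gave -14.1 kb and the upper 50% of each list gave -16.2 kb. Both had the smallest p the design allows (exact permutation p = 0.0286). Neither setting makes the lengths covered by the lists equal.

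Set against the length that each library's own list covered genome-wide, the KO mean was not below the WT mean. Per 100 Mb covered genome-wide, it held 72.5 and 94.6 kb in late KO, 88.6 and 77.1 in late WT, 66.3 and 66.5 in early KO, and 67.8 and 64.4 in early WT libraries. KO averaged 74.97 ± 13.4 kb and WT 74.47 ± 10.84 kb (SD, n = 4 each, difference 0.5 kb, exact two-sided permutation p = 0.9429). In the fit over all 180-kb tiles the locus changed by a log2 of -0.01 in late KO against late WT cells (SE 0.16, limma adjusted p = 0.969), where 3.4% of tiles were called. In early KO against early WT cells the value was -0.04 (SE 0.16, limma adjusted p = 0.958), where 0.159% of tiles were called. Centring removed a log2 of -0.86 from the late and -0.45 from the early contrast, and without it the locus stood at -0.87 (adjusted p = 0.0879) and -0.48 (adjusted p = 0.476), close to the median of all tiles, -0.79 and -0.45.

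Site by site, 3 further DNase regions below the bare stretch were open in all 8 libraries. The region from 132781601 to 132785000 held 1.6 and 2.0 kb in late KO, 2.0 and 3.2 in late WT, 1.6 and 1.0 in early KO, and 1.8 and 2.0 in early WT libraries. From 132790201 to 132792200 the libraries held 1.0 and 1.6 kb in late KO, 1.2 and 1.8 in late WT, 1.0 and 1.0 in early KO, and 1.2 and 1.0 in early WT. KO and WT overlapped or touched at both stages in the second of these, while early KO lay below early WT in the first. From 132797601 to 132802000 they held 2.2 and 2.6 kb in late KO, 2.8 and 3.0 in late WT, 1.4 and 2.6 in early KO, and 2.8 and 4.0 in early WT, KO below WT at each stage in uncentred kb. After centring, the bins from 132790001 and 132800001 had log2 changes of 0.26 and -0.01 in late KO against late WT, neither called by limma (adjusted p = 0.636 and 0.981).

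Above the bare stretch open chromatin was spread along the large acetylated domain. The widest site, 132914601 to 132927200, held 7.6 and 8.4 kb in late KO, 10.8 and 11.2 in late WT, 5.2 and 7.6 in early KO, and 9.8 and 10.4 in early WT libraries. In uncentred kb all KO libraries were below all WT libraries at this site. After centring, the bins from 132910001 and 132920001 had log2 changes of 0.33 (limma adjusted p = 0.572) and -0.51 (adjusted p = 0.298) in late KO against late WT, so the direction in the first of them turned with the scaling. From 132888201 to 132898600 the islands covered 4.2 and 6.0 kb in late KO, 7.2 and 7.0 in late WT, 5.0 and 6.8 in early KO, and 6.8 and 9.0 in early WT. Late KO was below late WT there, and early KO replicate 2 equalled early WT replicate 1. From 132906001 to 132908200 they covered 1.2 and 1.4 kb in late KO, 2.2 and 1.4 in late WT, 1.4 and 1.6 in early KO, and 1.8 and 1.8 in early WT, a site where the late groups touched. From 132883001 to 132887400 they covered 0.0 and 1.6 kb in late KO, 3.6 and 2.8 in late WT, 0.0 and 3.2 in early KO, and 2.0 and 3.8 in early WT, with 1 KO list of each stage at 0. None of the bins over these sites was called.

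Sites missing in late KO were about as frequent in the cluster as over the genome. Of 12 DNase regions found in a late library, 3 were held by both late WT and neither late KO library and 0 by both late KO and neither late WT library, where 21.5% and 0.953% of late regions genome-wide were. They lay at 132899201 to 132900400, with 1.0 and 1.2 kb in late WT and in no other group, at 132901401 to 132903600, with 1.4 and 1.2 kb in late WT, and at 132934601 to 132936400, with 0.8 and 1.2 kb in late WT. The second was also listed in early KO replicate 2 (1.6 kb) and early WT replicate 2 (2.0 kb). The third was listed in every early library, at 0.8 and 0.8 kb in early KO and 0.8 and 1.8 kb in early WT. At the early stage 0 of 12 regions were held by KO alone and 0 by WT alone, where 1.99% and 9.33% of early regions were. Another 3 DNase regions of the window were each listed in 1 library. Late KO and late WT shared 46.2% of their open 200-bp windows inside the cluster, against 63.9% and 68.8% between their replicates. Over the genome these shares were 37.4%, 47.7% and 52.6%. Early KO and early WT shared 55.0% inside the cluster, against 52.3% and 60.3% between their replicates. Late KO lists were also shorter than late WT lists.

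The last comparison set open chromatin of late against early cells. In late WT against early WT cells 0 of 10 bins were called by limma and 0 had an unadjusted p under 0.05, where 2.71% of all bins were called. In late KO against early KO cells 1 bin fell and 0 rose, where 2.25% of all bins fell and 0.197% rose. An unadjusted p under 0.05 was found in 3 bins, a count without a genome-wide share. Of these 3 the bin from 132910001 was higher in late KO (log2 0.84) and the others lower. The bin that fell was again 132770001 to 132780000, whose values stand above, with a log2 change of -1.62 (SE 0.22, limma adjusted p = 0.0214). With any 1 library left out the log2 change stayed between -1.71 and -1.54, but the call was lost without late KO replicate 1 (adjusted p = 0.0502), without early KO replicate 1 (0.075) or 2 (0.102), and without early WT replicate 1 (0.0694) or 2 (0.0678). Late KO libraries enter both called contrasts, which are therefore not independent. For the whole window the log2 change was 0.29 in late WT against early WT (SE 0.16, limma adjusted p = 0.573), where 0.531% of tiles were called, and 0.32 in late KO against early KO (SE 0.16, limma adjusted p = 0.318), where 3.73% were. The 2 time changes differed by a log2 of 0.02 (SE 0.23, limma adjusted p = 0.98), where 0.0796% of tiles were called.

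Open chromatin in the cluster lay inside acetylated chromatin. DNase islands that touched an H3K27ac island of the same group numbered 11 of 11 and 11 of 11 in late KO, 15 of 15 and 17 of 17 in late WT, 15 of 15 and 20 of 20 in early KO, and 15 of 16 and 13 of 13 in early WT libraries. Over the genome the share was 92.6% and 93.4% in late KO, 86.4% and 77.3% in late WT, 89.3% and 78.0% in early KO, and 70.8% and 67.3% in early WT. The exception, 132876001 to 132876400 in early WT replicate 1, lay in the small acetylated region that late WT replicates and late KO replicate 2 had and no early library had.

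A core of the cluster was shared by all groups. Of the length acetylated in any library, 69.2 of 100.8 kb (68.7%) were acetylated in all 8, against 35.7% over the genome. Of the length open in any library, 10.2 of 55.0 kb (18.5%) were open in all 8, against 12.1% over the genome. The shared open length formed 10 stretches of 600 to 2200 bp, each acetylated in all 8 H3K27ac lists. By the caller's score, the islands over 132890201 to 132890800 stood at percentiles 93.2 to 99.8 of their own lists. Those at 132799001 to 132799600 stood at 87.0 to 99.3, those at 132921601 to 132923600 at 80.1 to 98.7, and those at 132917601 to 132919800 at 67.6 to 98.7. These 4 stretches were picked after their percentiles were seen, and over all 10 the percentiles ran from 10.7 to 99.8. Stretches not named, at 77.1 to 99.3 and 69.5 to 93.5, had a higher lowest percentile than the last one named. A percentile belongs to the whole island, which can hold more than 1 stretch. In late WT replicate 1 the island from 132914801 to 132925200 gave both values of 98.7.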

How the data were processed

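H3K27ac ChIP-seq and DNase-seq libraries of late KO, late WT, early KO and early WT Th2 cells were grouped from the labels, 2 per group and assay. The submitters' processing notes name CASAVA 2.18, Bowtie2, SICER 1.1 and the build mm9. The deposited lists, 1 per library, give each island's position and a score, the authors' value from the caller; per the file names, duplicates were removed and SICER ran with 200-bp windows, 400-bp gaps and an E-value of 1. Scores served only to rank islands within a list. Read numbers and control libraries are not given in the sources used here.

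The kb covered per 10-kb bin and per 180-kb tile were taken as log2(kb + 0.5), where at least 2 of the assay's 8 libraries had an island. Each library was shifted to a common median over the bins or tiles with islands in all 8. The 4 groups were fitted together in R 4.3.3 with limma 3.58.1, using lmFit and eBayes (trend on), adjusted over all windows by Benjamini-Hochberg and called under 0.05. Unadjusted p-values under 0.05 were counted in the window only, so those counts have no genome-wide share beside them. The fit was run on simulated windows with islands in all 8 libraries, a common spread and no upper limit on coverage. That run does not cover bins that some lists leave empty or bins that are nearly full. Window coverage was compared by exact permutation (scipy 1.17.1, Python 3.11.15). Named with full values are bins called in any contrast and merged regions held by 2 or more libraries. The alternatives were other centring, lists cut to equal numbers of islands, the upper 50% of each list and a pseudocount of 2 kb. Further ones were no filter, merging within 1 kb, a replicate block and each library left out. The locus, its members and these tests were chosen with earlier results of these data known. With no mm9 annotation used here, receptor and signalling genes of the pathway were not looked up.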

Additional observations from a re-analysis of the deposited data

How the results depend on the processing

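Several calls changed with the processing, and the cause was not tested. With lists of equal length, the H3K27ac bins called by limma numbered 1 for early KO against WT, 1 for late against early WT and 1 for late against early KO, all higher. The DNase bins then numbered 1 for early KO, 2 for late KO and 1 for the interaction, all lower, 1 for late against early WT, higher, and 2 for late against early KO, 1 higher and 1 lower. With the upper 50% of each list, 0 H3K27ac bins were called for late against early WT, and the DNase bins were 2 for late KO and 1 for the interaction, all lower, and 3 for late against early KO, 1 higher and 2 lower. Without centring 2 DNase bins fell in late KO. A pseudocount of 2 kb gave 1 H3K27ac and 0 DNase bins for late against early KO, and bins shifted by 5 kb gave 0 DNase bins for late KO against WT and 0 for late against early KO. Where at least 50% of a region had to be covered, 1 DNase region was held by early WT alone.

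The replicate block gave 1 H3K27ac bin for early KO and 1 for late against early KO, and 0 DNase bins for late KO against WT and for late against early KO (adjusted p = 0.0535 and 0.0537 at 132770001). It left the late WT window at a log2 of 0.25 (adjusted p = 0.0516). Deviations of same-numbered libraries correlated at -0.038 to 0.082 between groups, so they shared little in coverage. Whether the numbers pair mice or cultures is not given by the labels.

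For the whole window, the H3K27ac log2 change of early KO was 0.063 without centring, 0.15 with quantile normalization and 0.012 with equal lists. Late against early WT was 0.23 with equal lists (adjusted p = 0.0852) and 0.19 in the upper 50% (0.0801), where late against early KO was 0.28 (0.0326) and the interaction 0.090. For DNase, early KO was 0.08 with islands within 1 kb merged, and late against early KO was -0.27 without centring. The DNase interaction was -0.39 without centring, -0.18 with quantile normalization, -0.12 with equal lists, -0.065 with a pseudocount of 2 kb, -0.12 with merging and -0.047 with mean centring. Over both stages, the H3K27ac difference of KO minus WT was -0.6 kb with merging and -1.95 kb per 100 Mb. The DNase difference was -14.1 kb with equal lists, -16.2 kb in the upper 50% and 0.5 kb per 100 Mb.

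At single bins, the upper 50% gave log2 values of -0.038, 1.93 and 1.97 for early KO, late KO and interaction of H3K27ac at 132930001, and equal lists gave 0.38 and 0.099 for late KO and interaction at 132870001. DNase of early KO at 132770001 was -0.11 without centring, -0.096 in the upper 50% and from -0.059 to 0.35 with a library left out.

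With each library left out in turn, where a lone library is assumed to vary like the other groups, H3K27ac bins called ranged from 0 to 1 for early KO, late KO, the interaction and late against early KO, and from 1 to 2 for late against early WT. Directions differed: for late KO 1 bin was lower without late KO replicate 2 and 1 higher without late WT replicate 2, and for late against early WT 1 was higher and 1 lower without late WT replicate 2, where the main calls were 2 higher. DNase bins ranged from 0 to 2 for late KO and from 0 to 1 for late against early KO. Window log2 changes ranged for H3K27ac from -0.17 to 0.010 (interaction) and from 0.21 to 0.26 (late against early WT). For DNase they ranged from -0.066 to 0.0065 (early KO), -0.20 to 0.16 (late KO) and -0.18 to 0.19 (interaction). The H3K27ac difference over both stages ranged from -3.03 to 2.97 kb. Unknown depth limits every absent island.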
